A study of Mus musculus with 6 samples.

Results

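The genes described here are the solitary Zfp genes of the mouse, that is, protein-coding genes named Zfp and a number whose start lies more than 200 kb from the start of every other gene so named on the same chromosome. Zfp36, which is no C2H2 gene, and chromosome Y were left out of the rule. On the GRCm38 annotation 133 of 364 Zfp-number genes were solitary and the other 231 were clustered. The rule uses name, gene type and position, and no measured value, although it was set with earlier results of these data known.

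RNA was sequenced from G1E-ER4, a mouse cell line of immature red cell precursors with an embryonic stem cell origin. A stable transgene gives these cells GATA-1, the master regulator of the red cell lineage, as a hybrid with the hormone-binding part of an estrogen receptor, so that tamoxifen switches on GATA-1 activity and with it differentiation. The 3 CHD4-APR libraries came from cells given the peptide YWLLAGII joined to Tat, a cell-penetrating sequence, and the 3 CTRL libraries from cells given a run of alanines joined to Tat, each at 10 μM for 2 h before tamoxifen and then for the 28 h with it. The CHD4-APR peptide copies an aggregation-prone region of the remodeler CHD4, and the comparison asked how gene expression during induced differentiation differed between cells given that sequence and cells given the alanine control. All 6 samples carried the fusion protein and all received tamoxifen, so no uninduced sample stands beside them, and the line is a single cell line. The labels give the tamoxifen dose as 100 nM in one place and 100 μM in another. Nothing in the labels says that the replicates were separate cultures, so the p-values below measure the spread between these samples, which may be technical.

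Total counts per library ran from 41687482 to 49784177. All 12 erythroid markers were detected at a level that could be tested. They summed to between 71200 and 76520 normalized CPM (counts scaled to the effective size of the library) in the CTRL libraries and to between 60680 and 64760 in the CHD4-APR libraries, with 3 markers higher and 5 lower. The 4 embryonic stem cell markers were at 0 in every library. Of the 5 megakaryocyte markers 1 was lower and 2 were at 0 (Gp1bb and Vwf), with sums of 46.72 to 48.8 CPM in CTRL and 39.86 to 45.7 in CHD4-APR. Of the 5 neutrophil and macrophage markers 1 was lower, with sums of 8.364 to 9.751 and 6.762 to 8.253 CPM. No mast cell, basophil or lymphocyte marker passed the test, and those lists summed to at most 3.781 CPM in any library. The part of these shifts in the values below was not tested. Fewer cells of a type and less RNA per cell cannot be told apart in bulk RNA.

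C2H2 zinc fingers are short folds in which paired cysteines and histidines hold a zinc ion, and runs of them read DNA, and in some proteins RNA. In many mouse Zfp proteins the fingers are joined to a KRAB domain, which binds the corepressor TRIM28 and so brings the histone methyltransferase SETDB1 and HP1 proteins to the bound DNA, in large part over retroelements. KRAB genes multiplied by tandem duplication and mostly stand in clusters, whereas solitary Zfp genes are a mixed group that also holds promoter-binding activators, corepressor subunits and proteins that act on RNA, ribosomes or other proteins.

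The 133 solitary genes were such a mixed group. A KRAB A box was matched in 36 of them, against 181 of the 229 clustered genes with a protein to search. Their proteins held between 0 and 36 C2H2 fingers, with a median of 8 against 11 in the clustered genes, and 17 of the 133 held 0 or 1. They lay on 20 chromosomes, with the most, 15, on chromosome 8. Another gene with at least 3 C2H2 fingers but a different kind of name stood within 200 kb of 16 of them, so these 16 were solitary by name only.

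The boundary of the rule can be read from the genes next to it. Just outside 200 kb, and so solitary, were Zfp969 (222.2 kb from Zfp965), Zfp966 (226.7 kb from Zfp969) and Zfp513 (253.4 kb from Zfp512). Just inside, and so clustered, were Zfp986 (198.1 kb from Zfp980), Zfp433 (197.1 kb from Zfp781) and Zfp683 (189.5 kb from Zfp593). Their log2 fold changes, CHD4-APR minus CTRL, were 0.62, 0.66 and -0.13 outside, and 1.40 and 0.32 for Zfp986 and Zfp433 inside, while Zfp683 had 0 counts. As single libraries were left out, Zfp513 ran from -0.23 to -0.02, Zfp986 from 1.13 to 1.75 and Zfp433 from 0.30 to 0.34. Zfp986 (edgeR FDR 0.0221) and Zfp433 (edgeR FDR 0.0296) were called by edgeR but not by DESeq2, and neither was called once a trend on transcript length and GC content, described below, was removed (1.23 and 0.09, edgeR FDR 0.0532 and 0.595). Both calls were also lost when CTRL replicate 2, CTRL replicate 3, CHD4-APR replicate 2 or CHD4-APR replicate 3 was left out, and that of Zfp433 when CHD4-APR replicate 1 was. Zfp986 had between 4 and 17 counts in a library and did not enter the fit that asked for 10 in each.

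The solitary Zfp genes were higher with the CHD4-APR peptide more often than lower. Of the 94 that passed the filter on low counts, 37 were higher and 4 were lower by edgeR's quasi-likelihood test at a Benjamini-Hochberg adjusted p (FDR) under 0.05, and 53 did not pass. Over all 12722 genes tested, 38.3% were called, 20.4% higher and 17.8% lower, against 39.4% and 4.26% of the tested solitary genes. Their median log2 fold change was 0.09, with quartiles of -0.06 and 0.37, beside -0.01 over all genes tested. The changes were small in size: the median among the 41 called genes was 0.374 in either direction on the log2 scale, and 9 genes passed 1.5-fold, all of them higher, where 3.48% of all genes passed that fold upward. Fold changes ran from -0.29 for Zfp821 to 0.93 for Zfp800.

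The shift was seen in each library. Relative to the CTRL mean, the median solitary gene stood at -0.03, 0.01 and 0.01 on the log2 scale in the 3 CTRL libraries and at 0.14, 0.12 and 0.09 in the 3 CHD4-APR libraries, while the median over all genes tested stayed between -0.01 and 0.01. All CHD4-APR libraries lay above all CTRL libraries. The groups did not overlap for 43 solitary genes that were higher and 9 that were lower, against 25% of all genes in each direction, and these included all 41 called genes. The solitary genes together took 0.3376% to 0.3528% of the counts in the CTRL libraries and 0.3858% to 0.4023% in the CHD4-APR libraries.

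**Figure D1:**
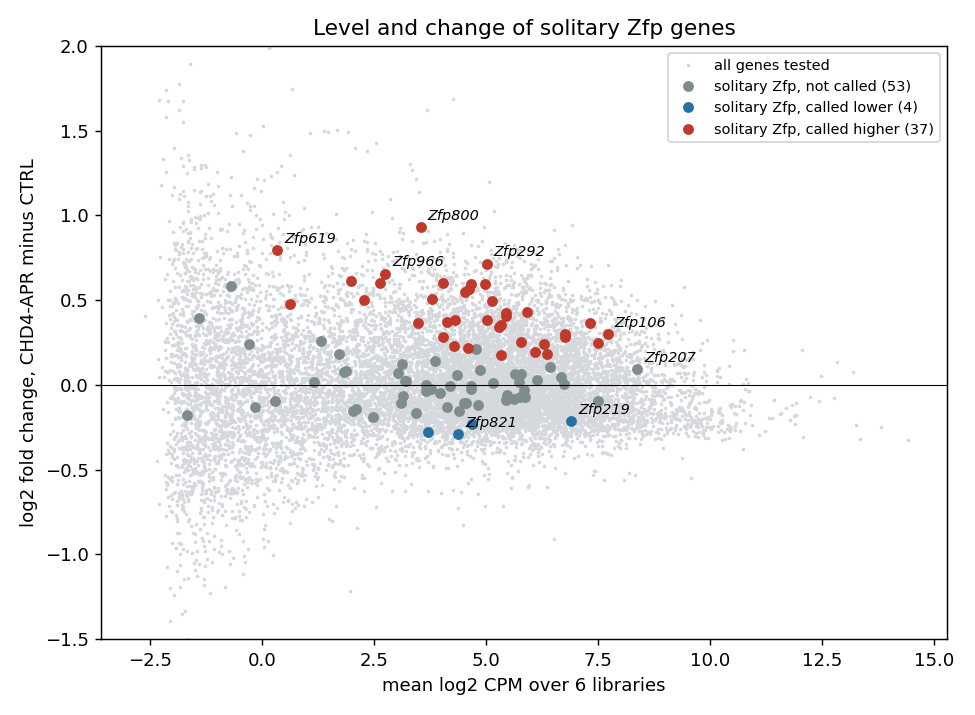
Log2 fold change (CHD4-APR minus CTRL) against the mean log2 CPM over 6 libraries, with each gene tested as a small grey point and the 94 tested solitary Zfp genes as large points, red where called higher (37), blue where called lower (4) and dark grey where not called (53). The red points span the range of levels, from Zfp619 at the left to Zfp106 at the right, and no blue point lies below -0.29. The vertical axis leaves out 13 genes of the 12722, none of them a solitary Zfp gene.

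The remaining 39 solitary genes did not pass the filter on low counts. In 25 of them every library had 0 counts, and in 36 every library had fewer than 10. The highest count of any was 12. With no filter 108 solitary genes entered the fit, and the counts called were again 37 higher and 4 lower. Of all 20637 genes in that fit 12.7% were higher and 10.6% lower. Of the 94 tested genes 92 were over the filter in every library of both groups, 1 in a single group only, and that one was not called.

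Exonic length and GC content went with the size of the change, in the solitary genes and in all genes alike. Over the 94 solitary genes the log2 fold change correlated with log2 exonic length at r = 0.28 (Spearman 0.33) and with GC content at r = -0.52 (-0.52), values that describe genes measured in the same 6 libraries. Over 12677 genes of all kinds they were 0.31 (0.41) and -0.40 (-0.46). Of the 32 longest solitary genes (7130 to 15840 bases of exon) 23 were higher and 0 lower, with a median log2 fold change of 0.29. Of the 31 shortest (1591 to 4346 bases) 4 were higher and 2 lower, with a median of -0.04. Likewise 19 of the 32 genes with the lowest GC content (35.75% to 42.55%) were higher and 0 lower, against 4 higher and 3 lower of the 32 with the highest (49.97% to 62.08%). Over all genes tested the shares were 20.4% and 17.8%.

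When a smooth trend of the counts on length and GC content was removed from every library, 20 solitary genes were higher and 13 lower, and the median log2 fold change was 0.04 (all genes, 11.7% higher and 16% lower, median -0.02). The longest genes then counted 10 higher and 6 lower, the shortest 3 and 1, those lowest in GC content 10 and 7, and those highest in it 4 and 0. The split of the calls thus moved from 37 and 4 to 20 and 13. Of the 37 higher genes 20 kept their call, 16 were no longer called and 1, Zfp638, was called lower. Of the 4 lower genes Zfp821 kept its call and 3 did not, and 11 genes that had not been called became lower. Of the 9 genes past 1.5-fold, 7 were still called higher, but only Zfp800 was still past 1.5-fold. Whether these trends arose in the cells or in the making of the libraries was not tested, so the called genes described below are given with their corrected values.

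**Figure D2:**
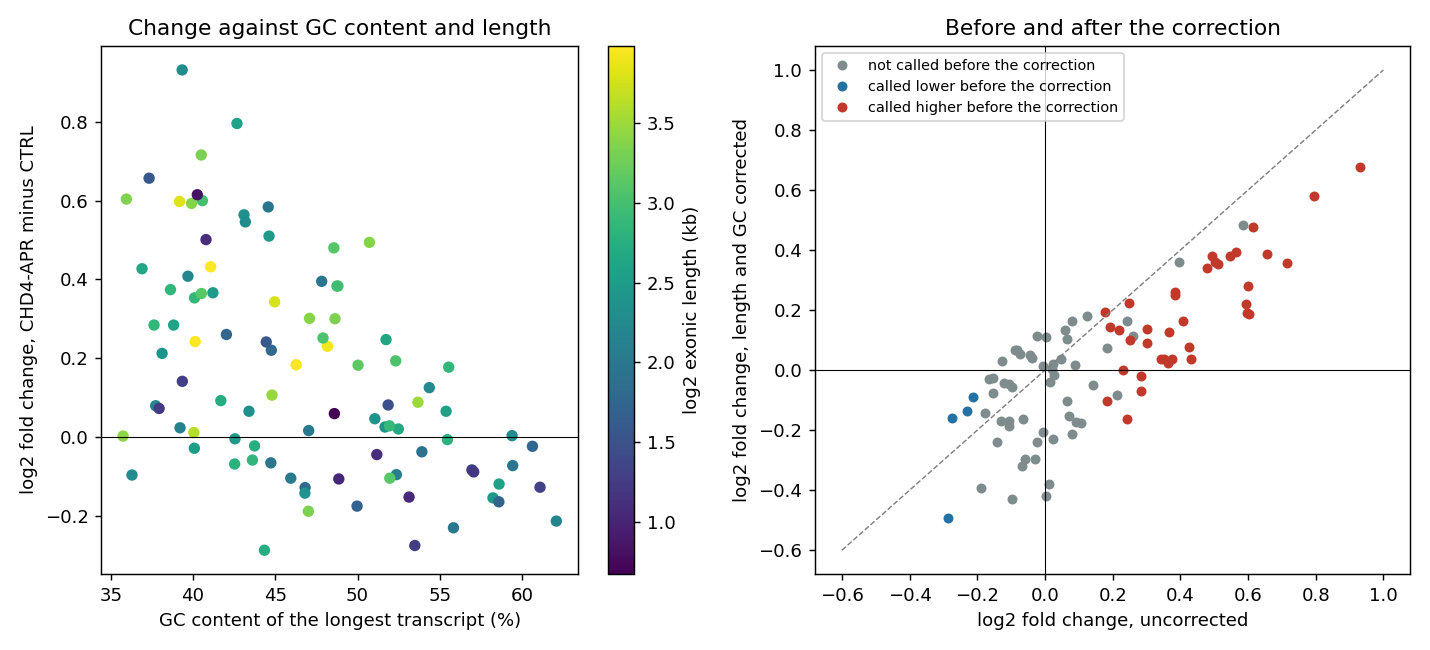
Log2 fold change (CHD4-APR minus CTRL) of the 94 tested solitary Zfp genes against the GC content of the longest transcript in percent, with points colored by log2 exonic length in kb (left), and the fold change after the length and GC correction against that before it, with points colored by the call before correction and a dashed line where both are equal (right). Genes under 42.55% GC lie mostly above 0 in the left panel, and in the right panel most of the 37 genes called higher lie below the dashed line.

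The largest change was that of Zfp800, a gene on the minus strand of chromosome 6 (28239927 to 28398005) whose protein held 6 fingers and no KRAB match. It measured 6.99, 9.52 and 8.74 CPM in the CTRL libraries and 15.5, 16.3 and 16.5 CPM in the CHD4-APR libraries, or 8.42 ± 1.30 and 16.1 ± 0.546 (SD, n = 3 each; edgeR log2 fold change 0.93, SE 0.097, FDR 3.38e-06). Its lowest CHD4-APR library lay well above its highest CTRL library, and the corrected log2 fold change was 0.68 (edgeR FDR 3.08e-05). Zfp292, which encodes a very large nuclear protein of 14 fingers (chromosome 4, 34803113 to 34882960, minus strand), rose from 22.8, 25.9 and 27.0 CPM to 40.3, 44.7 and 39.3 CPM, a log2 fold change of 0.72 (SE 0.070, edgeR FDR 2.12e-06, corrected 0.36). These were the 2 largest changes among solitary genes whose mean reached 1 log2 CPM.

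Their proximal promoters, from 250 bases before to 50 bases after the start, are shown beside those of the 2 genes that fell most, Zfp821 and Zfp691, because these 4 genes gave the largest changes in each direction among those at 1 log2 CPM or more. The sequences are from RefSeq on GRCm38.p6, written 5′ to 3′ on the strand of the gene, with every match to one of the searched motifs, on either strand, in capitals.
Zfp800 (higher, chr6:28397956-28398255, minus strand): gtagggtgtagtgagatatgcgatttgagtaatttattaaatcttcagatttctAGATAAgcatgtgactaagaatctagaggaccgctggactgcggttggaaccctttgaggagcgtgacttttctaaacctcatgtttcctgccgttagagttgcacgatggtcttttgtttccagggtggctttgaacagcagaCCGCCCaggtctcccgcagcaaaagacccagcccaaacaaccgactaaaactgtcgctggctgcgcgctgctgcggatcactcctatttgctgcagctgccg
Zfp292 (higher, chr4:34882899-34883198, minus strand): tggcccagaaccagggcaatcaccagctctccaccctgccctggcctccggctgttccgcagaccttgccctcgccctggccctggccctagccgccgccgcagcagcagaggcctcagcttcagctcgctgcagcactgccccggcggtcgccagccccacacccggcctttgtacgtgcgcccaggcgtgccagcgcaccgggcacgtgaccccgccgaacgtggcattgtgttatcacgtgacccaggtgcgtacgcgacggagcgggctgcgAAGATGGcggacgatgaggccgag
Zfp821 (lower, chr8:109705296-109705595, plus strand): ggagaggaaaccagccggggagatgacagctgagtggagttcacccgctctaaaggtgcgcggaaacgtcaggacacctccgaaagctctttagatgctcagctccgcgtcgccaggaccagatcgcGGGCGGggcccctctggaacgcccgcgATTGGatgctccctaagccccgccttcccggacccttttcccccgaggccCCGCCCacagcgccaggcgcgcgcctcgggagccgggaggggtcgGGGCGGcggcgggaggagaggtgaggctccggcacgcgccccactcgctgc
Zfp691 (lower, chr4:119174146-119174445, minus strand): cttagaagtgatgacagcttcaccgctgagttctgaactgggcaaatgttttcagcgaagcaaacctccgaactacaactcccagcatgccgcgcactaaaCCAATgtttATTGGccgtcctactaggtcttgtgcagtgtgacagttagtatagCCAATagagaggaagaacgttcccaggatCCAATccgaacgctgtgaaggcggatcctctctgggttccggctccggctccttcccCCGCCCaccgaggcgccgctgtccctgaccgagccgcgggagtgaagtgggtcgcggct

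The promoter of Zfp800 held 1 GATA match (AGATAA) and 1 SP and KLF match (GGGCGG, here as CCGCCC), and that of Zfp292 held 1 YY1 match (AAGATGG). Zfp821 had 3 SP and KLF matches with 1 CCAAT box, and Zfp691 had 1 SP and KLF match with 4 CCAAT boxes, here in both orientations. A match describes letters in the window and no more.

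A promoter was found for 103 solitary genes, 77 of them tested. For each gene the promoter nearest its annotated start was taken. The set of all mouse promoters held every listed promoter, whether or not its gene was expressed, and so is not a matched background. The SP and KLF letters GGGCGG stood in 69.0% of the 29 genes called higher, in 52.3% of the 44 not called and in 35.7% of all 32851 mouse promoters of that length. The ETS letters CCGGAAG stood in 24.1%, 20.5% and 8.9% of the same sets, CCAAT in 48.3%, 43.2% and 37.4%, and AAGATGG in 10.3%, 13.6% and 6.3%. GATA letters (AGATAA) stood in 2 of the 29 higher genes, 1 of the 4 lower, 1 of the 44 not called and 11.2% of all promoters. The TATA box (TATAAA) was found in 6.9%, 6.8% and 13.6%. The AP-1 letters TGANTCA were found in 3.4%, 4.5% and 7.8%, the CRE letters TGACGTCA in 0.0%, 6.8% and 1.8%, and the NRF1 letters GCATGCGC in 3.4%, 4.5% and 2.7%. All letters were searched on both strands, and none of these motifs contains another. The median GC content of the window was 55.7% in genes called higher, 60.15% in genes not called and 52.7% over all promoters.

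Among solitary genes with a KRAB match, 27 were tested, and 11 were higher and 0 lower, with a median log2 fold change of 0.21, where 20.4% of all genes were higher and 17.8% lower. Among the 67 tested without one, 26 were higher and 4 lower, with a median of 0.07. After the length and GC correction the KRAB genes counted 5 higher and 3 lower (median -0.05) and the others 15 and 10 (0.04), beside 11.7% and 16% of all genes, so no difference in share between KRAB and other solitary genes is read from these counts. By number of fingers, 10 of 27 tested genes with 0 to 4 were higher, 14 of 35 with 5 to 9, and 13 of 32 with 10 or more, with 1, 2 and 1 lower. After correction the same groups counted 5 higher and 7 lower, 7 and 3, and 8 and 3, beside 11.7% and 16% of all genes. The change correlated with the number of fingers at r = 0.20 (Spearman 0.14) over the 94 genes.

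Among KRAB genes whose mean reached 1 log2 CPM, the largest changes were those of Zfp966 and Zfp969, both on chromosome 2. Zfp966 (175918881 to 175931100, minus strand) went from 4.70, 5.35 and 5.92 CPM in CTRL to 8.23, 8.05 and 8.87 in CHD4-APR (log2 fold change 0.66, SE 0.10, edgeR FDR 1.36e-04). Zfp969 (175692223 to 175703646, minus strand) went from 2.62, 3.60 and 3.31 to 4.70, 4.63 and 5.31 (0.62, SE 0.13, edgeR FDR 0.00177). Neither pair of groups overlapped, and both kept their call after correction (0.39 and 0.48).

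These 2 values may not be separate measurements. Of the 50-base windows in the longest transcript of Zfp969 (1458 bases, of 1758 exonic bases in the gene), 100% also occurred in Zfp966, and of those in the longest transcript of Zfp966 89.58% occurred in some other gene, so that reads from these stretches could not be assigned with certainty, and how reads with several matches were counted is not given in the sources used here. Zfp970, further along chromosome 2 (177464733 to 177478129, plus strand), shared 57.17% of the windows of its longest transcript, most with Gm14288, and rose from 3.87, 4.66 and 3.69 to 5.93, 5.99 and 5.46 CPM (0.50, SE 0.12, edgeR FDR 0.00283, corrected 0.36). Each of the 3 had further C2H2 genes with Gm names within 200 kb (3, 3 and 4 of them). The coding sequence of a single finger is given as an example, with that of Zfp292 beside it. The finger of Zfp969 was the first with an identical copy in Zfp966, and that of Zfp970 was its closest match. That of Zfp292 was only the first of the same length. The identities below thus come from unlike choices and do not measure how alike the whole genes are. Each line gives 63 bases of GRCm38 on the coding strand, with the codons of the 2 cysteines and the 2 histidines in capitals.
Zfp966 (chr2:175921217-175921279, minus strand): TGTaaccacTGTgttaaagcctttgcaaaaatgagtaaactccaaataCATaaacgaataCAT
Zfp969 (chr2:175693815-175693877, minus strand): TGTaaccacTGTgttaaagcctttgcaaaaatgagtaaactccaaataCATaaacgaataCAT
Zfp970 (chr2:177475115-177475177, plus strand): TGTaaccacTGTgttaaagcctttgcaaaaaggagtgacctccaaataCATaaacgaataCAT
Zfp292 (chr4:34811291-34811353, minus strand): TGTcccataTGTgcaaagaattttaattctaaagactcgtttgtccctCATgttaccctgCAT
The finger of Zfp966 was identical to that of Zfp969, that of Zfp970 differed at 3 bases (95.2% identity) and that of Zfp292 at 41 (34.9%). All 11 fingers of Zfp969 were identical to a finger of Zfp966.

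The other KRAB genes that rose were unique in sequence by the same measure or nearly so. Zfp945 (18 fingers) measured 12.5, 14.2 and 13.6 CPM in CTRL and 20.7, 21.4 and 19.3 in CHD4-APR (0.60, edgeR FDR 1.54e-05), which shrank to 0.19 after correction but stayed called. Zfp169 (17 fingers) measured 4.46, 4.80 and 5.80 against 7.32, 8.12 and 7.37 CPM (0.60, edgeR FDR 4.95e-04), and after correction it did not pass (0.28, FDR 0.0538). Zfp317 (13 fingers) measured 17.5, 20.4 and 19.2 against 26.7, 28.8 and 28.1 CPM (0.55, edgeR FDR 1.95e-05, corrected 0.38). In all 3 genes every CHD4-APR library lay above every CTRL library. Zfp619, with 33 fingers, was at the edge of detection, with 0.921, 1.13 and 0.725 CPM in CTRL and 1.70, 1.85 and 1.33 in CHD4-APR (0.80, SE 0.22, edgeR FDR 0.0101). Its call was lost after correction (0.58, FDR 0.0619), without CTRL replicate 3 (0.65) and with CHD4-APR replicate 2 left out (0.70).

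**Figure D3:**
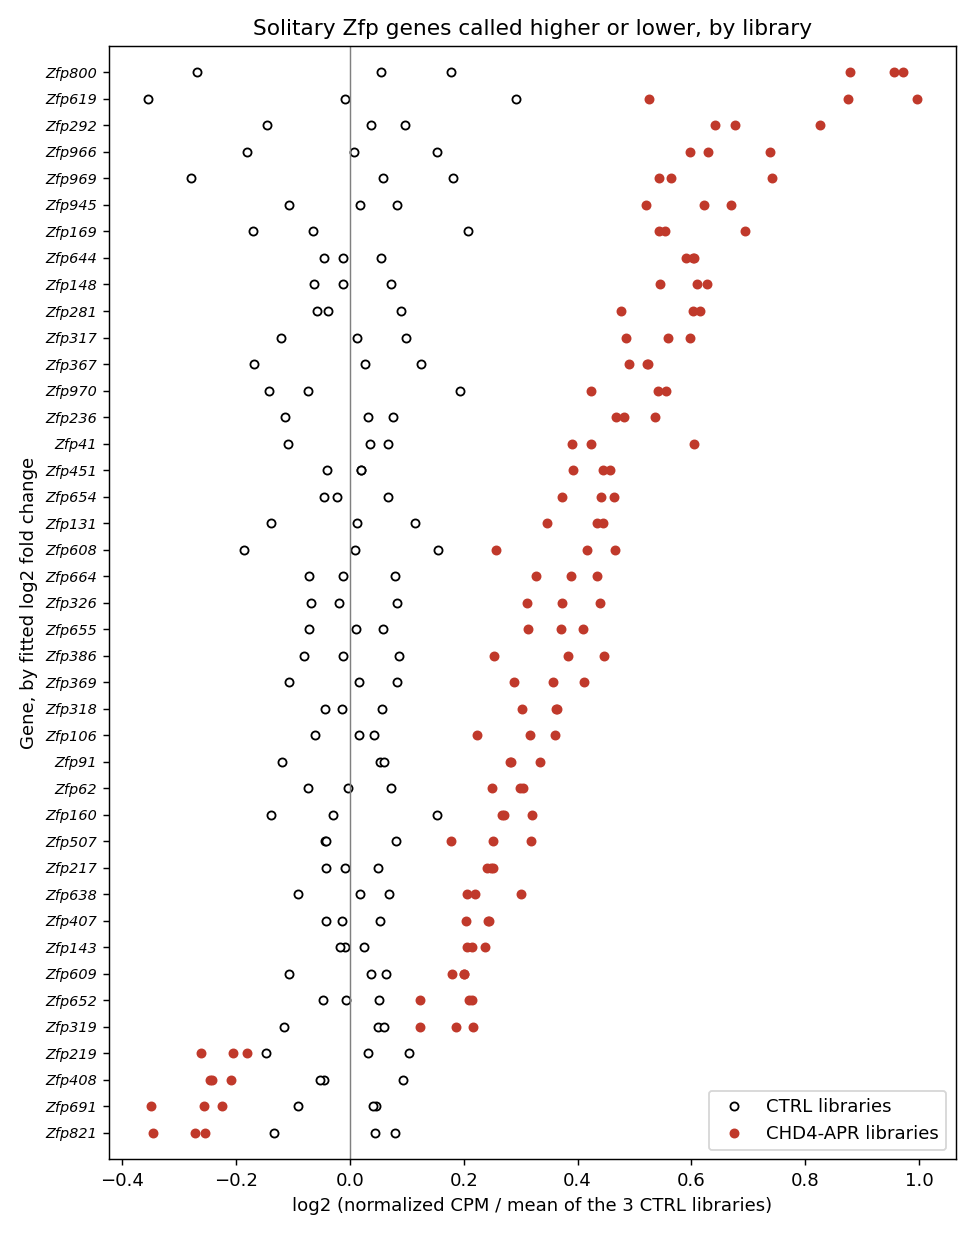
Level of each of the 41 called solitary Zfp genes in each library, as log2 of normalized CPM over the mean of the 3 CTRL libraries, with open circles for CTRL and filled circles for CHD4-APR, ordered by fitted fold change. In none of the 41 genes do the 2 groups overlap, and Zfp619 has the widest spread within groups.

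DNA-binding regulators with a known role were taken next. Of 17 such solitary genes 11 were tested, and 8 were higher and 0 lower, beside 20.4% and 17.8% of all genes, with a median log2 fold change of 0.34. After correction 6 were higher and 0 lower, beside 11.7% and 16%. The list was drawn up for known roles, with earlier results of these data known, and is not independent evidence of a direction.

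Zfp148, a Krüppel-like factor of GC-rich promoters also called ZBP-89, measured 24.5, 26.9 and 25.4 CPM in CTRL and 37.4, 39.6 and 39.1 in CHD4-APR (25.6 ± 1.22 and 38.7 ± 1.15, SD, n = 3; log2 fold change 0.59, SE 0.059, edgeR FDR 2.20e-06, corrected 0.22). Zfp281, which binds GC-rich DNA as well and is known from pluripotent cells, measured 19.7, 21.5 and 19.4 against 30.6, 30.9 and 28.1 CPM (0.56, SE 0.067, edgeR FDR 1.02e-05, corrected 0.39). Zfp644, a partner of the H3K9 methyltransferases G9a and GLP, measured 20.6, 21.5 and 20.1 against 31.5, 31.4 and 31.2 CPM (0.60, SE 0.060, edgeR FDR 2.32e-06, corrected 0.19). The CHD4-APR libraries stood above the CTRL libraries in each of the 3, and each kept its call after correction.

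Zfp131, a BTB zinc-finger protein, measured 34.4, 41.0 and 38.2 CPM in CTRL and 48.2, 51.6 and 51.2 in CHD4-APR (0.41, edgeR FDR 1.17e-04, corrected 0.17). Zfp217, a subunit of CtBP and CoREST corepressor complexes, was among the most abundant solitary genes and changed little but evenly, from 160.5, 164.3 and 171.1 to 195.3, 196.7 and 196.4 CPM (0.25, SE 0.042, edgeR FDR 2.74e-04). Correction for length and GC content left it at 0.22. Zfp143, an activator that binds many housekeeping and small nuclear RNA promoters, measured 22.1, 22.0 and 22.7 against 25.9, 25.7 and 26.3 CPM (0.22, edgeR FDR 0.00774), and Zfp318, which is needed for IgD expression in B cells, 33.8, 34.5 and 36.2 against 44.8, 44.9 and 43.0 CPM (0.34, edgeR FDR 1.33e-04). The groups did not overlap in any of them, but the last 2 were not called after correction (0.14, FDR 0.0796, and 0.04, FDR 0.632).

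The remaining tested genes with such a role did not pass. Zfp335, a cofactor of histone H3K4 methylation complexes, had a log2 fold change of 0.003 (edgeR FDR 0.968), Zfp384 of 0.02 (edgeR FDR 0.797) and Zfp703 of -0.02 (edgeR FDR 0.796), and their groups overlapped. Of the 6 untested genes, the pluripotency marker Zfp42 (Rex1), the EBF partner Zfp423, Zfp462 and Zfp90 were listed at 0 counts in all 6 libraries, and Zfp521 and the imprinting factor Zfp57 had at most 3 counts in any. Of the windows in the longest transcript of Zfp90 92.28% were shared, mainly with Gm26786, so a count of 0 there is no measure of its transcription.

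**Figure D4:**
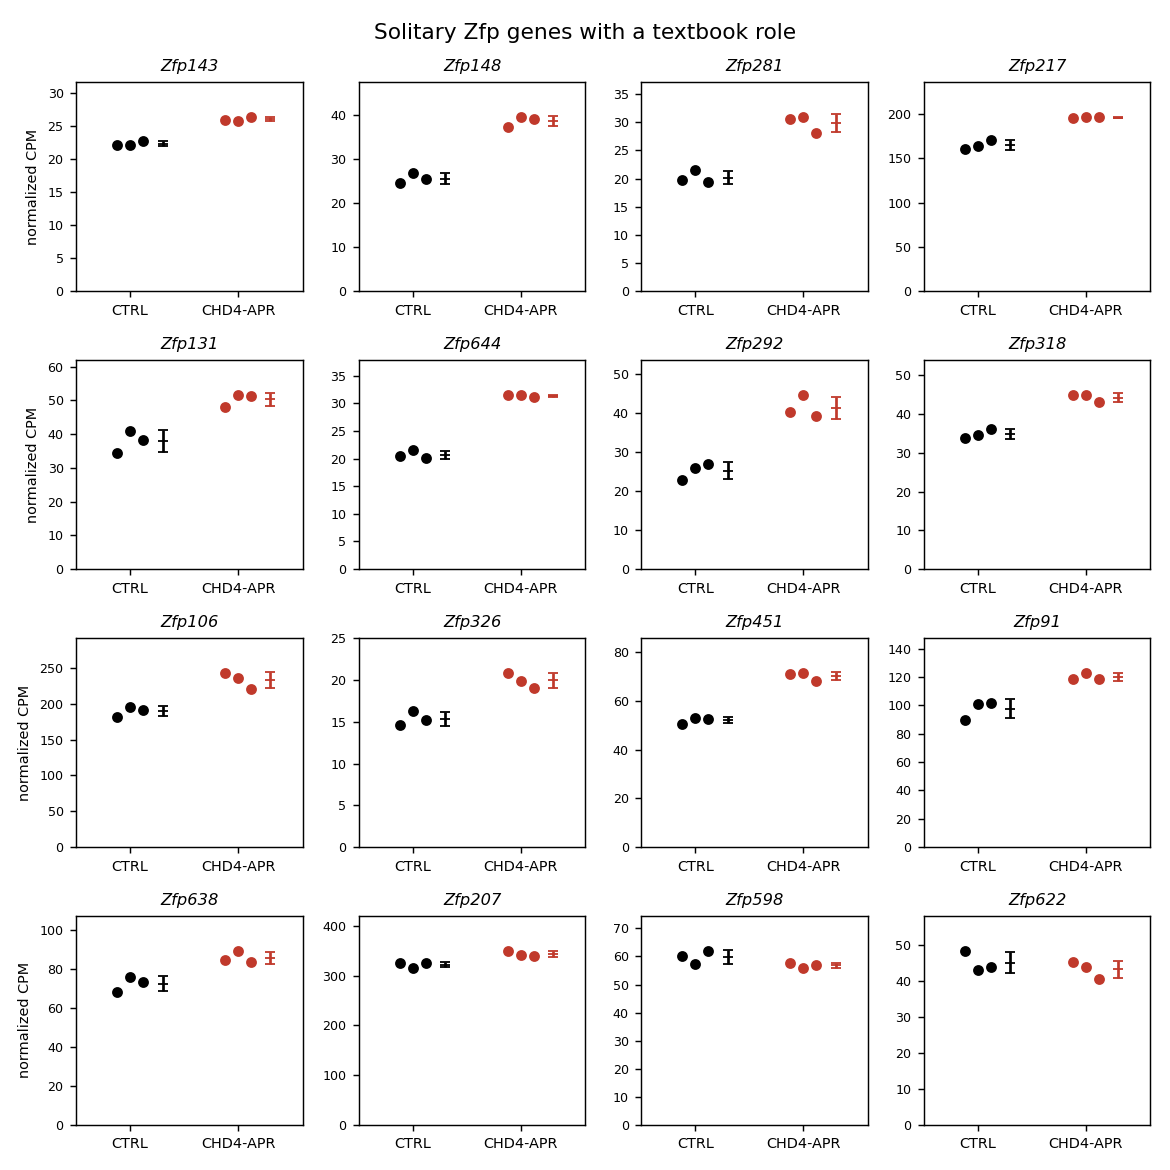
Normalized CPM per library, from 0, of 16 solitary Zfp genes with a known role, with black points for the 3 CTRL libraries, red points for the 3 CHD4-APR libraries and bars for mean and SD. Not shown are Zfp335, Zfp384, Zfp703, Zfp830 and Zfp346, which were also tested and were not called. The groups are apart in the first 13 panels, up to Zfp638, each called higher, and in Zfp207, which was not called, and they overlap in Zfp598 and Zfp622.

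Solitary Zfp genes whose proteins act on RNA, ribosomes or other proteins also included genes that rose, but few of them kept the call after correction. All 10 were tested, and 5 were higher and 0 lower, beside 20.4% and 17.8% of all genes, with a median log2 fold change of 0.17. After correction 1 was higher and 3 lower, beside 11.7% and 16% of all genes. Zfp91, an E3 ubiquitin ligase of the NF-kappaB pathway, was the one that kept a higher call, with 89.7, 101.1 and 101.6 CPM in CTRL and 118.6, 122.9 and 118.4 in CHD4-APR (0.30, edgeR FDR 2.81e-04, corrected 0.14). It shares 8.43% of its exonic bases with Cntf on the same strand.

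Zfp451, a SUMO ligase, measured 50.6, 52.8 and 52.8 CPM in CTRL and 70.9, 71.5 and 68.3 in CHD4-APR, a log2 fold change of 0.43 (SE 0.048, edgeR FDR 5.54e-06) that came to 0.04 after correction (FDR 0.573). Zfp326, which links RNA polymerase II to alternative splicing in the DBIRD complex, measured 14.7, 16.3 and 15.2 against 20.9, 19.9 and 19.1 CPM (0.37, edgeR FDR 6.23e-04, corrected 0.04 with FDR 0.732). Zfp106, an RNA-binding protein needed in motor neurons and muscle, measured 181.6, 195.1 and 191.4 against 243.1, 235.7 and 221.2 CPM (0.30, edgeR FDR 1.28e-04, corrected 0.09 with FDR 0.0814). Every CHD4-APR library was above every CTRL library in all 3, and in Zfp106 26.1% of the exonic bases overlap Gm26899 on the opposite strand, from which reads of this kit cannot be told apart.

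Zfp638, a matrin-type protein that represses unintegrated retroviral DNA with the HUSH complex, gave opposite answers in the 2 fits. It measured 67.9, 75.8 and 73.2 CPM in CTRL and 84.3, 89.1 and 83.4 in CHD4-APR, higher in 3 of 3 libraries (0.24, edgeR FDR 0.0015). With 15810 bases of exon at 40.13% GC it is one of the longest of the solitary genes, and after correction it was called lower (-0.16, FDR 0.00471). Its direction therefore rests on the treatment of length and GC content.

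Zfp207 (BuGZ), which loads Bub3 at kinetochores and takes part in spindle assembly, had the highest level per kilobase of exon of all solitary genes, with 49.9 CPM per kb, ahead of Zfp346 with 43.5 and Zfp217 with 29.4. Its libraries measured 324.3, 315.6 and 325.6 CPM in CTRL and 349.7, 341.3 and 338.3 in CHD4-APR, which did not overlap, but the difference did not pass (0.09, edgeR FDR 0.0829), and after correction it was lower (-0.17, FDR 0.00542). Zfp346, a double-stranded RNA binding protein, did not pass either (-0.10, edgeR FDR 0.0734). Zfp598, the ubiquitin ligase that marks collided ribosomes, measured -0.07 (edgeR FDR 0.266), and the large-subunit assembly factor Zfp622 -0.06 (edgeR FDR 0.474), the latter called lower after correction (-0.30, FDR 0.00285). Zfp622 lay at -0.094 with CTRL replicate 2 left out and at -0.007 with CTRL replicate 1 left out. Zfp830 measured 0.06 (edgeR FDR 0.505). As single libraries were left out, Zfp598 ran from -0.104 to -0.047 and Zfp830 from 0.039 to 0.078.

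The fold change was negative in 31 of the 94 tested solitary genes, and 4 of them were called lower, beside 17.8% of all genes, each by less than 0.3 on the log2 scale. After correction 13 solitary genes were called lower, beside 16% of all genes. Zfp821 (chromosome 8, 109705546 to 109724932, plus strand) measured 23.7, 21 and 24.3 CPM in CTRL and 19, 18.1 and 19.3 in CHD4-APR (23.0 ± 1.78 and 18.8 ± 0.627, SD, n = 3; log2 fold change -0.29, SE 0.071, edgeR FDR 0.00437), and the correction widened this to -0.49 (FDR 1.53e-04). Zfp691 (chromosome 4, 119169513 to 119174195, minus strand) measured 14.8, 14.8 and 13.5 against 11.3, 12.0 and 12.3 CPM (-0.28, SE 0.077, edgeR FDR 0.00935). Zfp408 measured 30.0, 27.3 and 27.1 against 23.7, 23.8 and 24.4 CPM (-0.23, edgeR FDR 0.00782).

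Zfp219, the most abundant of the 4, measured 138.3, 116.2 and 131.5 CPM in CTRL and 113.6, 111.6 and 107.4 in CHD4-APR (-0.21, edgeR FDR 0.00678), and 12.7% of its exonic bases overlap genes on the opposite strand. In each of the 4 genes all CTRL libraries lay above all CHD4-APR libraries, though in Zfp219 the nearest values were 116.2 and 113.6 CPM. After correction Zfp691, Zfp408 and Zfp219 were not called (-0.16, -0.14 and -0.09, FDR 0.115, 0.0776 and 0.1). None of the 4 had a KRAB match.

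The other 16 genes called higher had log2 fold changes between 0.18 and 0.51. After correction 7 of them kept the call, namely Zfp367 (0.51, corrected 0.35), Zfp236 (0.49, corrected 0.38), Zfp608 (0.38, corrected 0.25), Zfp664 (0.38, corrected 0.26), Zfp655 (0.37, corrected 0.13), Zfp609 (0.19, corrected 0.14) and Zfp319 (0.18, corrected 0.20). The call was lost by Zfp41 (0.48, corrected 0.34), Zfp654 (0.43, corrected 0.08), Zfp386 (0.36, corrected 0.02), Zfp369 (0.35, corrected 0.04), Zfp62 (0.28, corrected -0.02), Zfp160 (0.28, corrected -0.07), Zfp507 (0.25, corrected 0.10), Zfp407 (0.23, corrected 0.00) and Zfp652 (0.18, corrected -0.10). Zfp41 was the nearest to the threshold before correction, with 1.30, 1.18 and 1.33 CPM in CTRL and 1.70, 1.66 and 1.93 in CHD4-APR (edgeR FDR 0.0486). Zfp236, with 30 fingers, measured 27.3, 31.1 and 30.2 against 42.9, 41.3 and 40.9 CPM (SE 0.060, edgeR FDR 1.40e-05), and unlike most of the genes that rose it was not poor in GC (50.72%). None of the 16 had overlapping groups.

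Zfp410 was singled out after its values were seen, because in erythroid cells its protein is known to activate Chd4, which encodes the remodeler that the peptide copies in part. Zfp410 measured 82.0, 82.2 and 86.2 CPM in CTRL and 90.8, 88.5 and 90.2 in CHD4-APR, which did not overlap but did not pass (0.11, SE 0.045, edgeR FDR 0.0718), and after correction it was called lower (-0.18, FDR 0.00542). Chd4 itself measured 229, 237 and 227 against 240, 237 and 242 CPM (0.05, edgeR FDR 0.322).

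The RNA of genes whose proteins work with KRAB zinc fingers and CHD4 was followed in the same fit. Of 22 genes of the KRAB corepressor and heterochromatin system 10 were higher and 0 lower, beside 20.4% and 17.8% of all genes, with a median log2 fold change of 0.15. After correction 5 were higher and 1 lower, beside 11.7% and 16%. The 1 called lower was a gene not called before correction. Trim28, the corepressor that the KRAB domain binds, did not pass (-0.09, edgeR FDR 0.0873), nor did Setdb1 (0.14, edgeR FDR 0.0596). The largest rises in the list were those of Atrx, a remodeler of heterochromatin, from 60.8, 73.8 and 72.6 to 111.4, 123.0 and 109.6 CPM (0.73, edgeR FDR 1.17e-06, corrected 0.32), Fam208a, which encodes the HUSH subunit TASOR (0.59, edgeR FDR 2.80e-06, corrected 0.18), and Resf1, a partner of SETDB1 (0.58, edgeR FDR 3.88e-07, corrected 0.24). Of the other 7, Cbx1 (0.29, corrected 0.18) and Trim24 (0.28, corrected 0.15) kept the call after correction. It was lost by Smarcad1 (0.39, corrected 0.01), Trim33 (0.34, corrected 0.05), Atf7ip (0.28, corrected -0.001), Cbx5 (0.27, with overlapping groups, corrected -0.03) and Pphln1 (0.16, corrected 0.02). Pphln1 was also not called under upper quartile scaling or when CTRL replicate 1, CTRL replicate 3, CHD4-APR replicate 2 or CHD4-APR replicate 3 was left out (0.12 to 0.17).

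Of 16 NuRD and ChAHP genes, 4 were higher (25%) and 3 lower (18.75%), shares near the 20.4% and 17.8% over all genes tested, with a median of 0.06, and 4 were higher and 2 lower after correction, beside 11.7% and 16%. Those called higher were Adnp (0.51, corrected 0.44), Adnp2 (0.41, corrected 0.38), Gatad2b (0.21, corrected -0.04) and Rbbp4 (0.20, corrected -0.04), of which the last 2 lost the call. Adnp, at 1.76 CPM in CTRL and 2.52 in CHD4-APR, also lost it when CTRL replicate 3, CHD4-APR replicate 1 or CHD4-APR replicate 3 was left out (0.45 to 0.48). Those called lower were Mbd3 (-0.27), Cdk2ap1 (-0.20) and Gatad2a (-0.16), with corrected values of -0.11, -0.05 and -0.13, and Mbd3 and Cdk2ap1 lost the call. The other calls after correction, in both directions, were in genes of the list not called before it.

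The clustered Zfp genes were measured in the same fit. Of 181 clustered genes tested 53 were higher (29.3%) and 13 lower (7.18%), beside 20.4% and 17.8% of all genes, with a median log2 fold change of 0.13 against 0.09 in the solitary genes. As single libraries were left out, the 13 lower became 6 to 13, with 8 when CTRL replicate 1 was left out, 7 for CTRL replicate 3, CHD4-APR replicate 1 or CHD4-APR replicate 2, and 6 for CHD4-APR replicate 3. After correction the clustered genes counted 29 higher and 16 lower with a median of 0.00, and the solitary genes 20 and 13 with 0.04, beside 11.7% and 16% of all genes. Whether the 2 lists differ was not tested. The 79 tested genes with no other C2H2 gene of any name within 200 kb counted 32 higher and 4 lower with a median of 0.09. After correction they counted 16 higher and 11 lower with a median of 0.04, beside 11.7% and 16% of all genes.

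**Figure D5:**
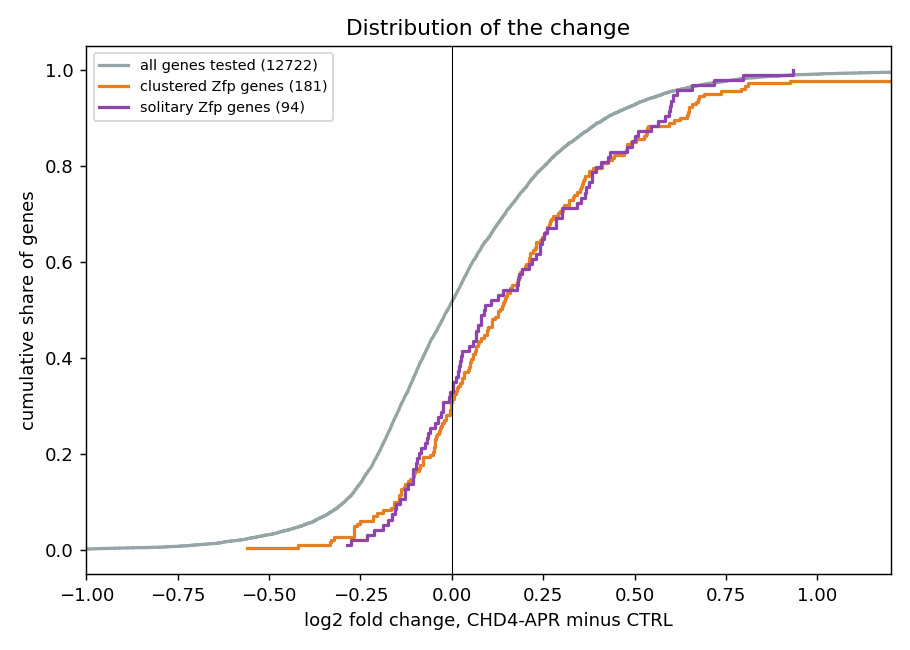
Cumulative share of genes by log2 fold change (CHD4-APR minus CTRL) for all 12722 genes tested, the 181 clustered and the 94 solitary Zfp genes. Over most of the range both Zfp curves run to the right of the curve of all genes, with medians of 0.13 (clustered) and 0.09 (solitary) against -0.01, and lie close to each other.

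Where exons overlap, counts of a gene and of its neighbor cannot be told apart without strand. Exonic bases of 41 solitary genes lie over another gene, over 10% of them in 16, among them Zfp507 (28.3%), Zfp106 (26.1%), Zfp652 (20.0%), Zfp219 (12.7%) and Zfp367 (10.9%) of the called genes. The 61 tested genes without overlap counted 25 higher and 3 lower, beside 20.4% and 17.8% of all genes, with a median log2 fold change of 0.14, and 13 and 10 after correction, beside 11.7% and 16%. Of the 16 tested genes with over 10% of their windows shared, 6 were higher and 0 lower, and 4 and 1 after correction.

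The calls were steady to the choice of test and of library, but the count past 1.5-fold was not. Of the 37 higher genes 34 were called higher in all 14 alternative fits without the length and GC correction, and 19 in all 16, and of the 4 lower genes 4 and 1. The count past 1.5-fold, 9, fell to 4 when CTRL replicate 1 was left out and to 5 when CHD4-APR replicate 2 was. The share of all genes past 1.5-fold in either direction, 4.23%, was 3.21% and 3.65% in those fits.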

How the data were processed

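RNA was sequenced from poly(A) libraries (TruSeq RNA v2, a kit that does not mark strand) of 3 CHD4-APR and 3 CTRL samples of G1E-ER4 cells, grouped by their labels. The authors checked reads with FASTQC, trimmed them with Cutadapt, aligned them to GRCm38 (Ensembl) with STAR 2.7.10a and deposited a table of raw counts per gene from featureCounts. The strand setting and the treatment of reads with several matches are not given in the sources used here. Library totals ran from 41687482 to 49784177 counts, and the table's 2 columns of samples outside the series were not used.

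Genes were named with GENCODE M21, which held 48349 of 48709 identifiers. Genes passing filterByExpr (minimum count 10) were compared with edgeR 4.0.16 in R 4.3.3 (TMM scaling, quasi-likelihood F-test without a block, two-sided, Benjamini-Hochberg over the 12722 genes tested, threshold 0.05). Standard errors were worked out from each gene's F value and fold change. The length and GC correction used offsets from a smooth surface fitted per library with mgcv 1.9.3. Alternatives were DESeq2 1.42.0, limma-voom 3.58.1, other scalings, filters and distances, a replicate block and leaving out each library. Of these, 3 (other C2H2 genes nearby, transcription starts, shared windows) were chosen after seeing the data. On simulated counts with 200 of 12597 genes changed by a log2 fold change of 1, edgeR recovered 179 with 7 false calls. With a smooth GC trend as the only simulated difference edgeR made 4354 calls of 12582 genes, and 0 of 12538 after the correction. That trend is of the kind the correction fits, and it had no length part. The result thus cannot show whether true changes linked to GC content are kept.

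Fingers and KRAB A boxes (at least 5 of 8 fixed residues) were counted by pattern in coding sequences translated from GENCODE M21, and promoters were taken from RefSeq (GRCm38.p6). Whether replicate numbers paired the samples was not settled. Between the groups, deviations from the group mean correlated at 0.0697, 0.0552 and -0.035 for libraries of the same number. For libraries of different numbers the correlations ran from -0.0808 to 0.0338. No pair of replicates agreed within sampling noise. The text names, among called genes at a mean of 1 log2 CPM or more with no overlap between the groups, the 10 with the highest fold change and all 4 that were lower, all called genes past 1.5-fold, genes with a textbook role, genes at the distance boundary, the 3 highest per kb and called corepressor genes. The members and lists were chosen with earlier results of these data known.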

Additional observations from a re-analysis of the deposited data

How the results depend on the processing

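With DESeq2, limma-voom, other scalings, other filters, an FDR of 0.01, and distances of 100 and 500 kb, the counts of solitary Zfp genes higher (30 to 46, against 37) and lower (3 to 6, against 4) stayed within 1.5 times. The length and GC correction gave 20 higher, 13 lower, 1 past 1.5-fold (against 9) and a median of 0.0357 (against 0.0903), and for clustered genes 29 higher (against 53) and a median of 0.0031 (against 0.1305). The replicate block alone, for numbers whose pairing was not settled, gave 37 higher, 4 lower, 9 past 1.5-fold and a median of 0.0907, with 60 and 13 clustered genes. Replicate block and correction together gave 23, 15, 2 and 0.0352, and 29, 23 and 0.0048 for clustered genes. Without members with overlapping exons the median was 0.1408. Leaving out 1 library at a time gave 34 to 37 higher, 4 to 4 lower, 4 to 12 past 1.5-fold and medians of 0.0777 to 0.1109, and for clustered genes 43 to 52 higher, 6 to 13 lower and medians of 0.0874 to 0.1671. The fewest past 1.5-fold were 4 (CTRL replicate 1 left out) and 5 (CHD4-APR replicate 2 left out), where 3.21% and 3.65% of all genes passed in either direction. Clustered genes lower fell to 8 without CTRL replicate 1, to 7 without CTRL replicate 3, CHD4-APR replicate 1 or CHD4-APR replicate 2, and to 6 without CHD4-APR replicate 3. These are counts of calls, and the fits without a library have fewer samples. Among the genes named by the stated rules, log2 fold changes changed sign under the correction, alone and with the block, for Zfp638 (-0.162 and -0.162), Zfp207 (-0.172 and -0.171), Zfp598 (0.053 and 0.053), Zfp703 (0.115 and 0.117), Zfp513 (0.032 and 0.03), Atf7ip (-0.001 and -0.001), Cbx5 (-0.027 and -0.026), Gatad2b (-0.039 and -0.041) and Rbbp4 (-0.039 and -0.04). Of the other genes given above, Zfp62, Zfp160, Zfp652 and Zfp410 also changed sign under the correction. Values near 0 also changed sign elsewhere: Zfp335 under upper quartile scaling (-0.014), and, over the fits without 1 library, Zfp335 (-0.042 to 0.037), Zfp384 (-0.006 to 0.054) and Zfp703 (-0.047 to 0.017). The cause was not tested beyond what the correction removes by construction. The 39 solitary genes outside the test had at most 12 counts in a library, and without the filter 108 solitary genes entered the fit.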
